A study of Drosophila melanogaster with 3 samples.

Results

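The genes described here are 32 protein-coding genes of the Notch signalling pathway and the Enhancer of split, or E(spl), complex, out of 13945 protein-coding genes on the 6 main arms of the fly genome. They were taken from a named list of ligands, the receptor, its modifying and cleaving enzymes, its regulators, the nuclear complex and the target genes of the E(spl) and Bearded families. Dl in this list is the ligand gene Delta (FBgn0000463), not dorsal. All 32 were found in the annotation. The chromatin came from whole Drosophila melanogaster embryos of the strain NK7.1-GFP, 0 to 24 hours old and of both sexes, which stably express the homeodomain protein NK7.1 with eGFP at its C-terminus. The labels' description names an anti-GFP antibody for the precipitation, while their antibody entry names NK7.1. The 3 libraries are biological replicates of this 1 group. Neither the promoter that drives the transgene nor the cells that express it are given in the sources used here. Untagged embryos were not analysed here. Comparisons are therefore among replicates and between these genes and all protein-coding genes.

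Notch is a receptor that is cut after it binds a ligand on a neighbouring cell. The freed intracellular part enters the nucleus and joins the DNA-binding protein Su(H) and the co-activator Mastermind. Together they switch on target genes, among them the bHLH repressors and Bearded family proteins of the E(spl) complex. In the fly embryo the pathway singles out neural precursors from the ectoderm and sets the fates of sister cells after asymmetric division, and it acts in muscle progenitors and trachea.

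A peak has a summit, the base at which its signal is highest, and a signal value on the peak caller's own scale, both as the authors deposited them. The authors' reproducible set, which they label optimal, holds 2475 peaks. It is made of the strongest peaks of a list called on the 3 libraries pooled, with signals of 92.5 to 1837. The window of a gene, as used below, is its body with 2 kb on either side, and a gene had a peak when its window held a summit. The embryos mix all tissues, so that binding in few cells and weak binding in many cannot be told apart. Coordinates are on dm6 and 1-based.

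The sequences shown first are a selection. It leaves out stretches that overlap a UTR, among them those at kuz, Nct, dx and E(spl)mbeta-HLH. Each sequence shown is the 101 bp centred on a reproducible summit, from the plus strand of Release 6. They belong to the strongest peak among these genes (gro, chr3R:26042457-26042557), the receptor gene (N, chrX:3162461-3162561), the only Bearded family gene with a reproducible peak (E(spl)malpha-BFM, chr3R:26009064-26009164), the ligand ubiquitin ligase gene neur (chr3R:9031947-9032047), numb (chr2L:9449664-9449764), and the bHLH repressor genes E(spl)m7-HLH (chr3R:26036579-26036679) and E(spl)m3-HLH (chr3R:26021530-26021630). Capitals mark letters of the motifs searched for below.
gro: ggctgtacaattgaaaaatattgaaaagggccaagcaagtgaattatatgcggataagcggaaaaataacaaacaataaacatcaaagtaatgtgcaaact
N: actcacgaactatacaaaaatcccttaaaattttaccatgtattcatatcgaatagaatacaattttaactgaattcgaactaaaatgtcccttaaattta
E(spl)malpha-BFM: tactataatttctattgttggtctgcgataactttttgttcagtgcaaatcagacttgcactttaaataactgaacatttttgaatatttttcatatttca
neur: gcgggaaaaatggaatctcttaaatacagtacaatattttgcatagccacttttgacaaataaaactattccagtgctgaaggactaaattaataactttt
numb: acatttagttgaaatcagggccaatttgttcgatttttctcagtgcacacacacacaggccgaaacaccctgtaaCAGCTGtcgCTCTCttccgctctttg
E(spl)m7-HLH: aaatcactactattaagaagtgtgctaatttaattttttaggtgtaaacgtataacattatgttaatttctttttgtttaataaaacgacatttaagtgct
E(spl)m3-HLH: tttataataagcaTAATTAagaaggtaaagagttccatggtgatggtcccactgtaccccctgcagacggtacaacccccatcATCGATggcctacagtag

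The share of G and C was 32.7% at gro, 25.7% at N, 26.7% at E(spl)malpha-BFM, 30.7% at neur and 22.8% at E(spl)m7-HLH, and 46.5% at numb and 45.5% at E(spl)m3-HLH. Over all 17 reproducible peaks counted for these genes the median was 38.6%, beside 35.6% over all 2475 reproducible summits.

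Of the 32 genes, 16 had a reproducible summit in the window, which is 50%. Among all protein-coding genes 22.6% had one. The 16 genes drew on 17 distinct peaks, since E(spl)m8-HLH and gro share a pair of peaks and kuz and gro have more than 1. Neighbouring genes share windows and peaks, so the genes are not independent counts, and no test was made of the list, which was chosen with results of these data known. The count was also split by gene length: 6 of 8 Notch pathway genes of at least 10 kb had a summit, where 41.4% of all genes that long had one, and 10 of 24 shorter ones, where the share of all shorter genes was 19.5%. The median gene length was 1895.5 bp for the 32 genes and 2166 bp for all protein-coding genes. Genes of at least 10 kb were 8 of the 32 and 1977 of the 13945. Among the 32 genes the median length was 3923 bp with a reproducible summit and 1474.5 bp without one. The part that length plays in the count was not tested.

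A summit in a gene's window can sit at another gene's transcription start site (TSS). In 10 of the 17 peaks the nearest TSS was that of a Notch pathway gene itself, and 9 of the 32 genes had a reproducible summit whose nearest TSS was their own, beside 11.7% of all protein-coding genes. These are fng, kuz, neur, numb, gro, E(spl)mbeta-HLH, E(spl)m3-HLH, E(spl)m7-HLH and E(spl)malpha-BFM. In 5 of the other 7 peaks the nearest TSS belonged to another gene and lay within 1 kb. The aph-1 peak is among the 5, although its summit was nearly as close to aph-1 (294 bp) as to Snx21 (274 bp). In the remaining 2, at N and mam, no TSS lay that close. Counted only by summits within 1 kb of their own TSS, 9 of the 32 genes had a peak and 13.9% of all protein-coding genes did. By position, 9 of the 17 summits lay upstream of the gene, 6 in its introns, 2 in its 5' UTR and 0 in a coding exon.

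**Figure D1:**
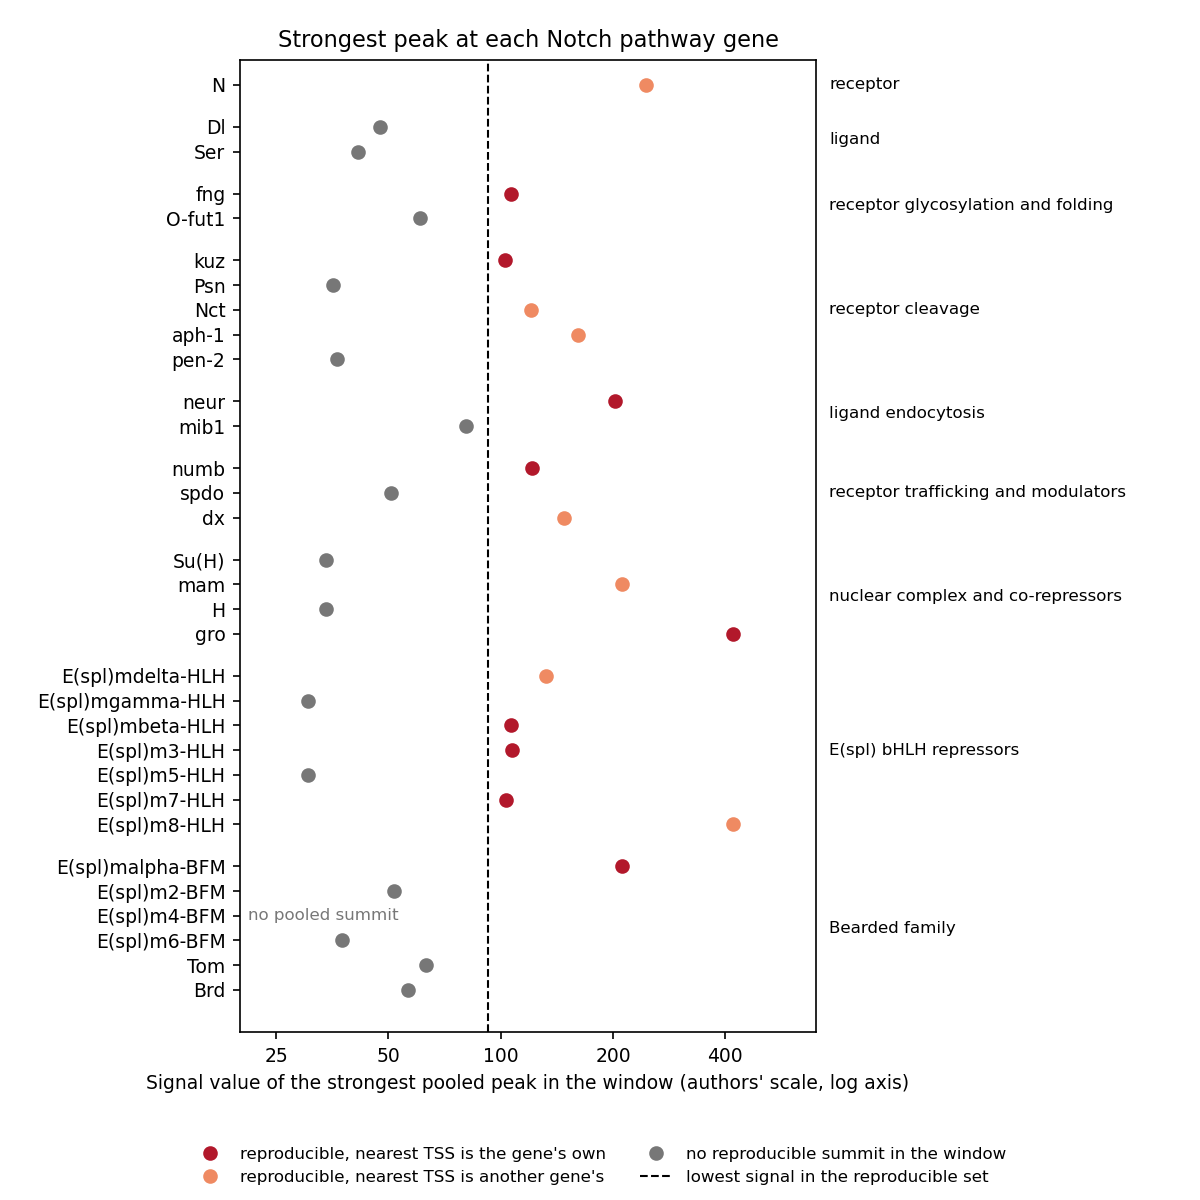
The signal value of the strongest pooled peak in the window of each of the 32 genes, on a log axis and grouped by role, with the lowest signal of the reproducible set as a dashed line. Colours mark whether the nearest TSS is the gene's own. Both ligand genes and 4 Bearded family genes lie left of that line and E(spl)m4-BFM has no pooled summit, while gro and its neighbour E(spl)m8-HLH share the highest value of 419.

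The receptor gene N (FBgn0004647) spans 3134870 to 3172221 on the plus strand of X. An intron of N held its reproducible peak, which ran from 3162467 to 3162593. The summit was 27641 bp from the nearest TSS of N, with a signal of 245 and rank 374 in the pooled list. The nearest TSS of any gene, that of CG18508, was 10629 bp away. The overlapping peaks had signals of 82.8 in replicate 1, 90.6 in replicate 2 and 75.1 in replicate 3, at ranks 448, 245 and 529. All 3 lay within the 2475 strongest of their own list. A peak 344 bp upstream of the N start was weaker than the reproducible set: its signal was 87.3, at pooled rank 2726, against the lowest reproducible signal of 92.5. It overlapped peaks at ranks 2152, 2257 and 4407 in replicates 1, 2 and 3.

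The ligand genes had no reproducible peak. Dl, which encodes Delta, held 8 pooled summits over its 23487 bp and flanks, and the strongest ranked 8537 with a signal of 47.5. Ser, which encodes Serrate, held 1 pooled summit at rank 11281. The best ranks in the window of Dl were 15908, 3001 and 11465 in replicates 1, 2 and 3, and those of Ser were 8866, 9871 and 17968. All 6 values lie below the 2475 strongest peaks of their list.

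Among the genes that act on the ligands or modify the receptor, neur had the strongest peak. Neur is a ubiquitin ligase that drives ligand endocytosis. An intron of neur held the peak, which ran from 9031787 to 9032206 on 3R, with a signal of 203 and its summit 1734 bp from a TSS of neur. The overlapping peaks had signals of 71.4, 56.5 and 62.7 in replicates 1, 2 and 3, at the close ranks of 591, 671 and 785. The other such ligase gene, mib1, fell just short of the reproducible set, with its strongest pooled peaks at ranks 3165 and 3177. The first lay 144 bp upstream of hzg and the second 35 bp inside mib1, with signals of 80.5 and 80.3. The peak near hzg overlapped peaks at ranks 1799 and 1867 in replicates 1 and 3, among their 2475 strongest, and at 11709 in replicate 2. At the start of mib1 itself the ranks were 2721, 20048 and 2809 in replicates 1, 2 and 3, outside the 2475 strongest each time.

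Fringe, encoded by fng, adds sugar to the receptor and changes which ligand it answers to. The fng peak was intronic, from 20944184 to 20944603 on 3L and 5118 bp from the fng TSS, and had a signal of 107. It overlapped peaks at ranks 2661, 7625 and 1214 in replicates 1, 2 and 3, so that it stood among the 2475 strongest in replicate 3 alone. O-fut1, which encodes the fucosyltransferase that prepares the receptor for Fringe, had no reproducible summit. Its strongest pooled summit ranked 5326 and lay 5 bp inside eIF3m.

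Of the 5 genes for receptor cleavage, 3 had a reproducible summit, beside 22.6% of all protein-coding genes. Kuz is the metalloprotease that makes the first cut after ligand binding. Its gene had a peak at its start, on 2L at 13550000 to 13550419, 71 bp inside kuz, with a signal of 103. The replicates differed there, with ranks of 1305, 8328 and 2640 in replicates 1, 2 and 3. A second peak counted for kuz, with a signal of 93.4, lay 37 bp inside the neighbouring gene B4 and had no overlapping peak in replicate 2.

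The γ-secretase subunit genes split evenly. Those for Aph-1 and Nicastrin had a reproducible summit, and those for Presenilin and Pen-2 did not, beside 22.6% of all protein-coding genes with one. The aph-1 peak, from 2765729 to 2766148 on 2L, had a signal of 161. Its summit was between the starts of neighbouring genes, 294 bp upstream of aph-1 and 274 bp upstream of Snx21, a sorting nexin gene. Its replicate signals were 69.9, 49.4 and 41.5 at ranks 623, 883 and 1808. The Nct peak ran from 24850372 to 24850791 on 3R and had a signal of 121. Its summit was 1019 bp upstream of Nct but 45 bp upstream of CG7006. Its ranks were 1311, 1737 and 1972 in replicates 1, 2 and 3, and all 3 replicates thus held it among their 2475 strongest peaks. In Psn and pen-2 the strongest pooled summits ranked 15567 and 14803, with signals of 35.6 and 36.4. That of Psn was downstream of the gene, 155 bp inside mRpL15.

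Among the genes that modulate the receptor inside the cell, numb and dx had a reproducible summit and spdo did not, beside 22.6% of all protein-coding genes with one. Numb is an inhibitor of Notch that one daughter cell inherits at asymmetric division. The numb peak ran from 9449504 to 9449923 on 2L, with a signal of 121 and its summit 116 bp before an internal TSS of numb. It was uneven among replicates, with signals of 38.8, 69.1 and 27.1 and ranks of 2083, 440 and 4526 in replicates 1, 2 and 3. In replicate 3 a different summit in numb, at rank 1931, was among the 2475 strongest. The peak counted for dx, which encodes a ubiquitin ligase that binds the receptor, ran from 6533051 to 6533470 on X. Its summit was 5 bp from a TSS of RpL7A, a gene for a protein of the large ribosomal subunit, and 738 bp upstream of dx. Its signal was 148, and its ranks were 2803, 1428 and 651. Sanpodo, which works with Numb in asymmetric division, is encoded by spdo, whose strongest pooled summit ranked 7398.

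In the nuclear complex, gro and mam had reproducible summits and Su(H) and H did not, beside 22.6% of all protein-coding genes with one. Groucho is the co-repressor that E(spl) bHLH proteins and Hairless recruit. The strongest gro peak was intronic, from 26042396 to 26042617 on 3R, with its summit 134 bp before an internal gro TSS. Its signal of 419 was the highest of these genes and put it at pooled rank 117. The replicate signals were 142, 126 and 144, and the ranks 132, 120 and 131 in replicates 1, 2 and 3, with summits within 14 bp of the pooled one. A second gro peak, at 26041431 to 26041850 and 95 bp upstream of the first gro TSS, was weaker and less even. Its signal was 104, and its ranks were 3798, 2699 and 852.

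Mastermind, encoded by mam, is the co-activator that joins Su(H) and the cleaved receptor. Its gene spans 69154 bp on 2R and held 34 pooled summits, the most of the 32 genes, of which 1 was reproducible. That peak was intronic, from 14024975 to 14025394, with its summit 6478 bp from the nearest mam TSS, and the nearest TSS of any gene, that of CG18371, was 3435 bp away. Its signal was 212, and the replicates gave 99.4, 44.7 and 75.1 at ranks 293, 1052 and 530. The peak at the mam start, 132 bp inside the gene, ranked 2940 with a signal of 83.9, below the reproducible set. In Su(H), whose product binds DNA, the strongest of 2 pooled summits ranked 17049, and in H, which encodes the co-repressor Hairless, the only one ranked 17118. Their signals were 34.0 and 33.9.

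The E(spl) cluster with gro spans 52.3 kb of 3R, from 25997621 to 26049911. It held 6 reproducible summits, the gro pair among them, or 115 per Mb, where the whole of 3R held 18.5 per Mb. The span was cut at the ends of listed genes, while the 3R value is over the whole arm. The densities are therefore not matched for gene content. Pooled summits numbered 24, or 459 per Mb beside 206 per Mb over 3R. In the replicates' own 2475 strongest peaks the span held 6, 3 and 5 summits in replicates 1, 2 and 3, a mean of 4.67 ± 1.53 (SD, n = 3). Of the 11 E(spl) genes on the list 6 had a reproducible summit in the window, beside 22.6% of all protein-coding genes. All 11 are under 10 kb, where the share of all genes was 19.5%. E(spl)m8-HLH was among the 6 only through the gro peaks. For 4 of the 11 the nearest TSS to such a summit was their own, beside 11.7% of all protein-coding genes. Outside the cluster 9 of 20 genes had a summit, and 4 of the 20 had one with their own TSS nearest. The shares of all protein-coding genes are again 22.6% and 11.7%.

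**Figure D2:**
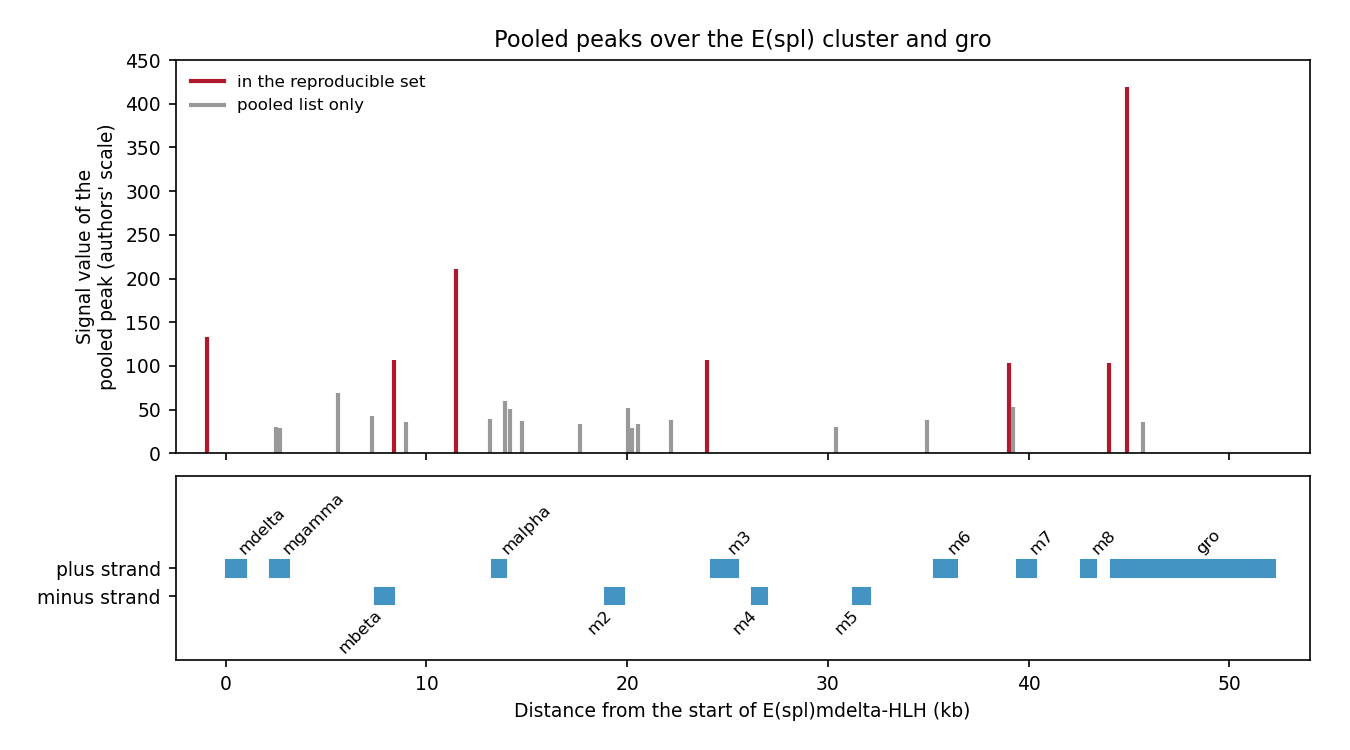
Signal values of all pooled peaks with a summit in the span of the E(spl) cluster and gro, and of the reproducible peak before E(spl)mdelta-HLH. They are plotted at their summits by distance from the start of E(spl)mdelta-HLH, above the listed genes on each strand. Other genes of the region and weaker pooled peaks before the span are not drawn. The 2 tallest bars, 419 in gro and 211 upstream of E(spl)malpha-BFM, stand above that of 133 before E(spl)mdelta-HLH and 4 other reproducible peaks between 104 and 107, and the genes m2, m4, m5, m6 and mgamma have none in their windows.

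Of the 7 bHLH repressor genes, 5 had a reproducible summit, beside 22.6% of all protein-coding genes. The summits of E(spl)mbeta-HLH, E(spl)m3-HLH and E(spl)m7-HLH lay at the start of the gene itself, 5 bp inside, 243 bp upstream and 409 bp upstream of the TSS. A TSS of another gene also lay within 1 kb of the E(spl)m3-HLH summit. The signals at the 3 genes were nearly equal at 106, 107 and 104, and all 3 peaks ranked between 1894 and 2017 in the pooled list. Among replicates they were not equally even. The E(spl)m3-HLH peak ranked 2313, 2375 and 2449 in replicates 1, 2 and 3, always just inside the 2475 strongest, although the replicate 3 summit had an offset of -225 bp from the pooled one. The E(spl)mbeta-HLH peak ranked 1533, 4825 and 1940, and the E(spl)m7-HLH peak ranked 910, 3254 and 4065.

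The summits counted for the remaining bHLH repressor genes with one lay at other genes. That of E(spl)mdelta-HLH belonged to a peak from 25996457 to 25996876 with a signal of 133. It was within an intron of CG43116, 329 bp inside that gene and 954 bp upstream of E(spl)mdelta-HLH. It ranked 807, 1775 and 1951 in replicates 1, 2 and 3. E(spl)m8-HLH was counted through the gro peaks, which lay 1499 bp and 633 bp beyond its 3' end. E(spl)mgamma-HLH and E(spl)m5-HLH had no reproducible summit, and their strongest pooled summits ranked 21300 and 21206 with signals of 30.4 and 30.5.

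Bearded family proteins bind Neuralized and hold back ligand endocytosis. Of the 6 genes for them, 1 had a reproducible summit, E(spl)malpha-BFM, beside 22.6% of all protein-coding genes. The E(spl)malpha-BFM peak, from 26008904 to 26009323, had a signal of 211. The summit was intergenic, 1779 bp upstream of the gene's own TSS, which was the nearest one. The replicate signals of 74.9, 63.3 and 75.3 had ranks of 536, 520 and 524 in replicates 1, 2 and 3, the narrowest spread relative to rank among the 17 peaks. E(spl)m4-BFM held no pooled summit in its window. The strongest pooled summits of E(spl)m2-BFM, E(spl)m6-BFM, Tom and Brd ranked 7167, 13833, 4982 and 6088.

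The replicates were next compared gene by gene. With the 2475 strongest peaks of each replicate, 16 of the 32 genes had a summit in replicate 1, beside 22.5% of all protein-coding genes, 12 in replicate 2, beside 22.6%, and 16 in replicate 3, beside 22.9%. The mean was 45.8 ± 7.22% of the 32 genes and 22.7 ± 0.187% of all protein-coding genes (SD, n = 3). In every replicate 11 genes had such a summit, 5 had one in 2 replicates, 1 in 1 replicate and 15 in none. The same breakdown is not given for all protein-coding genes, so these numbers describe the list alone. These counts are by gene, and the summits can differ among replicates. For kuz the best-ranked summit was at its own start in replicate 1 and at B4 in replicate 3. For fng it was upstream of the gene in replicate 1 and in the intron in replicate 3. Support from a replicate means here that its 2475 strongest peaks include one sharing 1 bp or more with the reproducible peak. All 3 replicates supported a peak at 10 of the 32 genes, beside 14.3% of all protein-coding genes. These are N, Nct, aph-1, neur, mam, gro, E(spl)mdelta-HLH, E(spl)m3-HLH, E(spl)m8-HLH and E(spl)malpha-BFM. Of the 17 distinct peaks, 9 were supported by all 3 replicates, 3 by 2 and 5 by 1. That is 52.9%, beside 57.7% of the whole reproducible set. Since the authors derived the reproducible set from the 3 libraries themselves, this support is a description and no independent check.

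**Figure D3:**
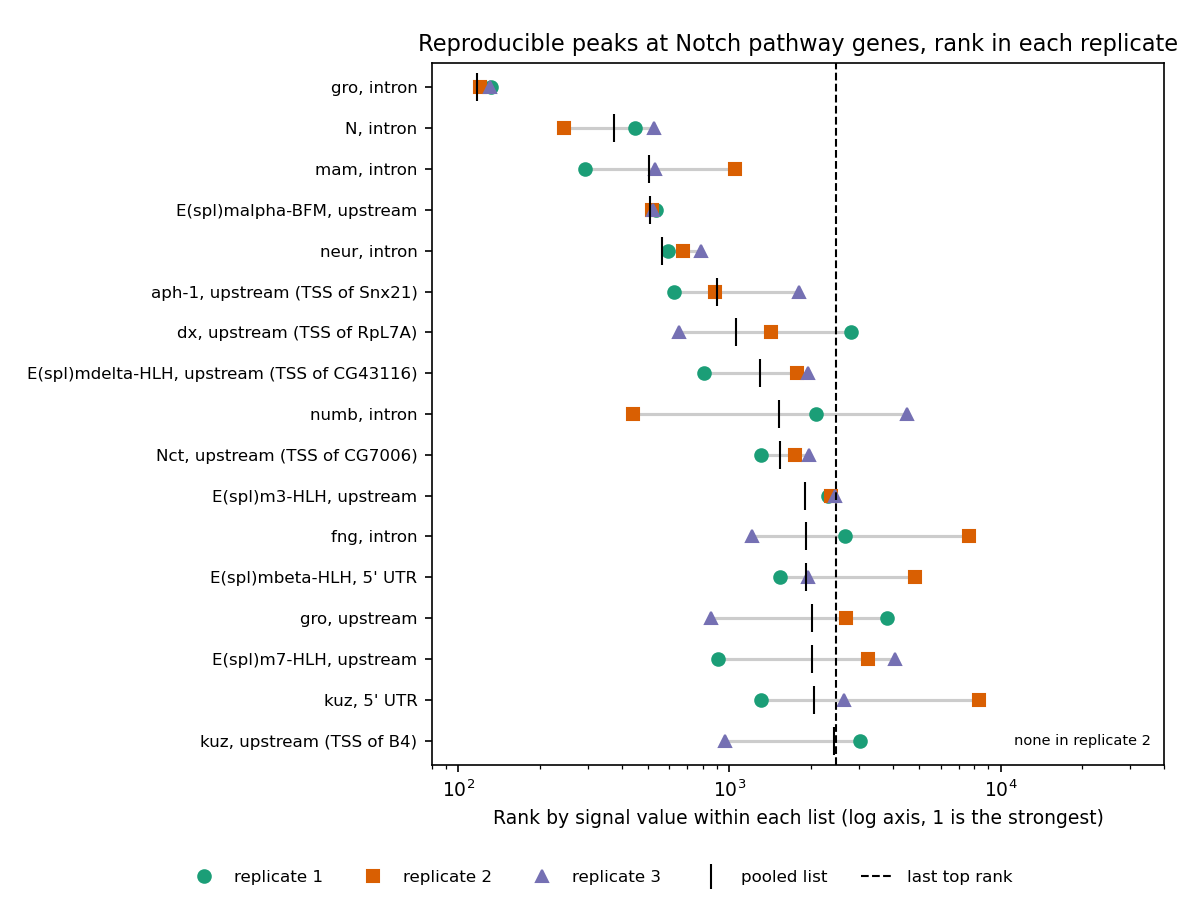
Rank of the overlapping peak in each replicate for the 17 reproducible peaks at Notch pathway genes, ordered by pooled rank on a log axis, with the last of the 2475 top ranks as a dashed line. The intronic peaks of gro and neur and the peaks of E(spl)malpha-BFM and E(spl)m3-HLH keep close ranks in all replicates. Those of numb, fng, kuz, dx, E(spl)mbeta-HLH and E(spl)m7-HLH and the upstream peak of gro are spread on both sides of the line.

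The full lists go down to −log10 q-values of 0.0177 in the pooled list and in replicate 1, 0.053 in replicate 2 and 0.067 in replicate 3. A pooled summit lay in the window of 31 of the 32 genes and of 79.8% of all protein-coding genes. In the full replicate lists the counts were 32, 32 and 30 of 32 in replicates 1, 2 and 3, beside 79.3%, 83.4% and 82.4% of all protein-coding genes. The median number of pooled summits in the window was 3 for the 32 genes and 2 for all protein-coding genes.

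**Figure D4:**
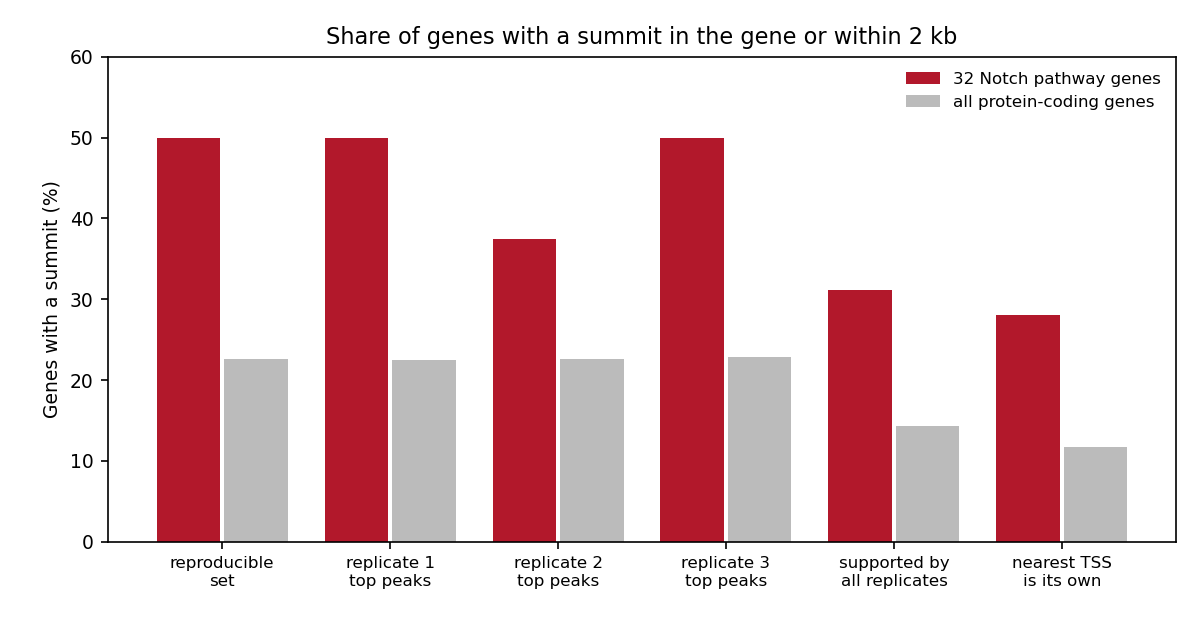
Percent of the 32 Notch pathway genes and of all protein-coding genes with a summit in the window, for the reproducible set, the 2475 strongest peaks of each replicate, peaks supported by all replicates and summits whose nearest TSS is the gene's own. The Notch pathway genes lie between 28.1 and 50%, the protein-coding genes between 11.7 and 22.9%.

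Su(H) binds sites that were searched for here as GTGGGAA and GTGAGAA on both strands. Such a site lay within 500 bp upstream of 10 of the 32 genes and of 10.2% of all protein-coding genes, and 6 of the 10 were E(spl) genes. Of the 16 genes with a reproducible summit 4 had one, and of the 16 without 6 had one. Around the 17 summits themselves none of the 101 bp windows held one, where 2.34% of all reproducible summits did. The nearest was 76 bp from the Nct summit, and with 100 bp on either side 2 of 17 windows held one, beside 5.05%. Upstream of E(spl)m8-HLH a pair of sites on opposite strands began 223 and 199 bp from the TSS (chr3R:26040002-26040062, plus strand), and the gro peaks that give this gene its count lie on its other side. E(spl)m4-BFM had 3 sites, beginning 310 to 83 bp from its TSS (chr3R:26024641-26024904, minus strand), and no pooled summit, though its window held summits of low rank in replicate 1 (13410) and replicate 2 (19076). E(spl)malpha-BFM had 2 sites, beginning 484 and 340 bp from its TSS (chr3R:26010394-26010574, plus strand), and its reproducible summit was farther upstream, 1779 bp from the TSS. The 3 stretches are shown 5′ to 3′ on the strand of the gene, with the sites in capitals, to set genes with and without a peak of their own side by side.
E(spl)m8-HLH: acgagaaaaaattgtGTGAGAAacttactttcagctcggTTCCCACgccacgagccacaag
E(spl)m4-BFM: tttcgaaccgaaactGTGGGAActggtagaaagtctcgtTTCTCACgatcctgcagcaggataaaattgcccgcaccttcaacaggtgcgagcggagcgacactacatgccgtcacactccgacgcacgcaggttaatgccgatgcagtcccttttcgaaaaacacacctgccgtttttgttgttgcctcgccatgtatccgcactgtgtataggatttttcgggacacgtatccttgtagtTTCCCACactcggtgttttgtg
E(spl)malpha-BFM: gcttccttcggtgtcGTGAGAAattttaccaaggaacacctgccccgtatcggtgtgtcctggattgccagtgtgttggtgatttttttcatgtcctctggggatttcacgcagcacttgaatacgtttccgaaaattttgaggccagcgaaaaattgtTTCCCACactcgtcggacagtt

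The homeodomain cores TAATTA and TAATTG were found in 1 window each of 17, beside 6.95% and 9.49% of all 2475. TAATTA is the one in the E(spl)m3-HLH window shown above. CACNAG, the N-box that E(spl) bHLH proteins bind, was in 2 windows, beside 10.8%, and ATCGAT, the core bound by DREF, in 2, beside 5.09%. The E-box CAGCTG and GAGAG, bound by GAGA factor, were each in 1 window, that of numb, beside 4.89% and 11.8%, and CACGTG and CAGGTA were in none, beside 1.05% and 2.18%. All were counted on both strands, and TAATTA can overlap TAATTG. With 17 windows these counts describe the peaks and no more.

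Other genes of the pathway, from a list of further regulators, nuclear factors, Bearded family and proneural genes, had a reproducible summit in 18 of 53 cases, or 34%, beside the 22.6% of all protein-coding genes given above. Those acting on the receptor and ligands had one in 11 of 24. The highest signals were counted for Kul, an ADAM metalloprotease gene, with 603 at a peak 105 bp upstream of CIA30, and for Fur1, a furin protease gene, with 396 at a peak 165 bp upstream of Vps33B. Peaks nearest to their own TSS were those of l(2)gd1 (323), the endosomal GTPase genes Rab11 (274) and Rab5 (158), rumi (219), which encodes a glucosyltransferase of the receptor, lqf (109), which encodes epsin, and Nak (98.3). Those of Gmd (218), AP-2alpha (198) and Usp8 (119) lay nearest to CG3792, ebi and meigo. Among 12 nuclear factors 5 had a summit, namely the co-repressor genes Smr (313) and CtBP (152), the acetyltransferase genes nej (193) and Gcn5 (185), and the Mediator gene skd (117). Of these, CtBP and Gcn5 had their own TSS nearest. The nearest TSS to the nej summit was that of lncRNA:CR42657, at 428 bp, and those to the Smr and skd summits, at 4732 and 3367 bp, also belonged to non-coding RNA genes. The list of proneural genes and other bHLH-Orange genes had 2 of 14, emc (106) and cwo (135). None of the proneural genes ac, sc, l(1)sc, ato and amos had one. The 3 further E(spl) cluster and Bearded family genes had 0. Values in parentheses are signals of the strongest reproducible peak.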

How the data were processed

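For each of 3 ChIP libraries a dm6 narrowPeak list was deposited, with further lists for the pooled alignments and for a set thresholded by the irreproducible discovery rate, per the text listings. Each list was called against a control. No source used here names an aligner or a peak caller. The signal value in the deposited lists is a score whose scaling for depth is not given. The deposited −log10 q-value was capped, with 1276 of 2475 reproducible peaks at 3.41, so peaks were ranked by signal. No list holds read counts, so the depth is unknown and no value here has an error from depth. The dm3 lists were not used.

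Summits (start plus offset) were matched to the Ensembl 115 annotation of the same assembly, and sequences were read from Release 6, whose arm lengths fit the lists. The background is all 13945 protein-coding genes on the 6 arms. Replicate spread is the SD over 3 replicates of 1 group, and no test between groups is possible. The 32 genes and the further list were chosen with earlier results of these data known. In the annotation, 6 names had another symbol, Delta for Dl among them, and 3 names of the further list were not matched. All 32 genes are described. A gene outside the list is named where its TSS is nearest to a summit or where it is on the further list and had a summit. Some proneural genes of the further list without a summit are named too. Motifs were counted within 50 bp of summits. The counting steps were tested on simulated summits. Python 3.11.15, NumPy 2.4.6, pandas 2.3.3 and Matplotlib 3.10.9 were used. Alternatives are given in the closing section.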

Additional observations from a re-analysis of the deposited data

How the results depend on the processing

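The count of 16 genes with a reproducible summit in the window was 8 with the gene body alone (8.02% of all protein-coding genes), 8 with the 1237 strongest peaks (13.1%) and 9 with summits within 1 kb of the gene's own TSS (13.9%). It was 14 with a 1 kb window (18.6%), 21 with 5 kb (32.9%), 16 with any base of the peak in the window (23.3%) and 17 with 4950 pooled peaks (36.9%). In percentage points, the difference from all protein-coding genes was smallest with the 1237 strongest peaks. It was also smaller than in the main count with the 1 kb limit on the own TSS, 4950 pooled peaks and the gene body alone. The 9 genes whose own TSS was nearest became 3 with the 1237 strongest peaks (6.5% of all protein-coding genes) and 14 with 4950 pooled peaks (20.1%). The mean of 14.7 genes in a replicate's own top peaks was 8.67 with 1237 peaks per replicate (12.9% of all protein-coding genes), 18.7 with 4950 (36.8%) and 6 with the gene body alone (8.3%). These settings use fewer or more peaks, shorter or longer windows, or a limit on the distance to the TSS. Why each count moved was not tested. Without 1 replicate, using the 2475 best mutually overlapping peaks of the other two, the first count was 12 to 17 (21.7 to 22% of all protein-coding genes) and the second 6 to 12 (11.2 to 11.4%). Without 1 replicate the count supported by every remaining replicate was 11 each time (16.1 to 16.4%), and the mean of top peaks was 14 to 16. The 10 genes supported by all 3 replicates were 9 under each other overlap rule (14 and 14.3%) and 14 with 4950 peaks per replicate (20%). The lists hold no depth, so peaks just short of the reproducible set, at N, mib1 and mam, cannot be called absent. The split by gene length was added after the data were seen. No paired analysis was possible because there is 1 group.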

Other observations

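The motifs were also counted within 500 bp upstream of the start of each gene, and some were found in a larger and some in a smaller share of the 32 genes than of all protein-coding genes. CACGTG was found in 5 of the 32 genes, 4 of them E(spl) genes, and in 5.75% of all protein-coding genes. CACNAG was found in 18 and in 43.4%, GAGAG in 18 and in 41%, TAATTG in 17 and in 41.4%, and CAGGTA in 4 and in 10.9%. TAATTA was found in 9 and in 34.6%, CAGCTG in 6 and in 22.2%, and ATCGAT in 5 and in 28.2%. Among the 16 genes with a reproducible summit and the 16 without, CACNAG was in 12 and 6, GAGAG in 11 and 7, TAATTG in 10 and 7, TAATTA in 6 and 3, CAGCTG in 3 and 3, CACGTG in 2 and 3, ATCGAT in 2 and 3, and CAGGTA in 1 and 3. These are counts of letters on both strands, for genes that share flanks, and no test was made of them.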
